A study of Mus musculus with 34 samples.

Results

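Denervated and control gastrocnemius muscle of vehicle-treated wild-type mice were compared in 15 of the 34 RNA-seq libraries of the series. The 7 denervated libraries (WT_VEH_DEN) came from legs whose sciatic nerve had been cut, and the 8 control libraries (WT_VEH_CON) from contralateral legs that were left innervated. Both groups were female, wild type, 6 months old at surgery and dosed by mouth with vehicle 2 times a day for 2 weeks. They were taken from a study that also holds denervated legs of mice given the class IIa histone deacetylase inhibitor NVS-HD1 (10 libraries) and of mice with an induced whole-body deletion of Hdac4 (9 libraries). The labels do not say whether the wild-type mice received tamoxifen or carried the Cre transgene. The control leg belongs to an operated and dosed animal, and the labels do not tie a control leg to the denervated leg of the same mouse, so legs were compared as unpaired libraries. Nothing states that each library is a different mouse, so a p-value here reflects only the variation among the libraries in its fit or test. The main limma fit pooled the spread within groups over all 34 libraries, NVS-HD1 and knockout legs included. Its standard errors, intervals and p-values therefore do not describe the spread of the compared groups alone.

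Gastrocnemius is a fast, mixed muscle of the hind leg whose RNA is dominated by sarcomere, calcium-handling and glycolytic transcripts. Cutting the motor nerve removes electrical activity and nerve-derived signals. In the muscle fibre this is known to raise transcripts of acetylcholine receptor subunits and of the myogenic factor myogenin, to raise the ubiquitin ligases of atrophy, and to lower many transcripts of energy metabolism. Class IIa histone deacetylases, HDAC4 among them, are known to act in that response. This is background: the rows of the deposited table cannot be read as those genes, for the reason given next.

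The table carries 23737 rows, each with a gene symbol, but the symbols do not belong to the values. Of 15 rows labelled with abundant fast-muscle genes such as Acta1, Ttn and Ckm, 3 were listed at 0 in all 34 libraries and the highest control mean was 144.6 TPM (an abundance corrected for transcript length and expressed per library total). The labelled tissue can thus be neither checked nor contested from its markers. Of 18 rows labelled with genes known to respond to denervation, 12 could be tested, and 8 rose and 1 fell, where 41.9% of all rows tested rose and 19.1% fell. Of 11 tested rows with muscle symbols, 4 rose and 3 fell. No gene is therefore named below. A row is identified by its position in the table, counted from 1 at the first row of values, and is described by its abundance, its change and its spread. In whole-muscle RNA, fewer cells of a type and less RNA per cell cannot be told apart, and neither can be told from a change in the rest of the pool, because TPM of a library always add up to the same total.

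Denervation changed most of the measured transcriptome, and mostly by small amounts. The 13108 rows that reached 1 TPM in 7 or more of the 34 libraries were tested on log2(TPM + 1) with limma, and 7996 changed at a Benjamini-Hochberg adjusted p under 0.05, which is 61% of the rows tested. Of these, 5495 rose and 2501 fell. The median rise was 0.60 and the median fall -0.55 on the log2 scale, and the median standard error of a row's difference was 0.12. Changes of at least 2-fold were found in 1574 rows (12%), 1103 upward (8.41%) and 471 downward (3.59%). Larger changes thinned out quickly. At least 4-fold, 190 rows rose (1.45%) and 100 fell (0.763%), and at least 8-fold, 62 rose (0.473%) and 21 fell (0.16%). At least 16-fold, 23 rows rose (0.175%) and 5 fell (0.0381%), and at least 32-fold, 12 rose (0.0915%) and 1 fell (0.00763%). Folds on this scale understate the change of rows with few TPM. These calls and standard errors come from the fit that pooled all 4 groups. A fit of only the 15 libraries compared called 7959 rows (limma, adjusted p under 0.05), 5482 upward and 2477 downward.

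**Figure D1:**
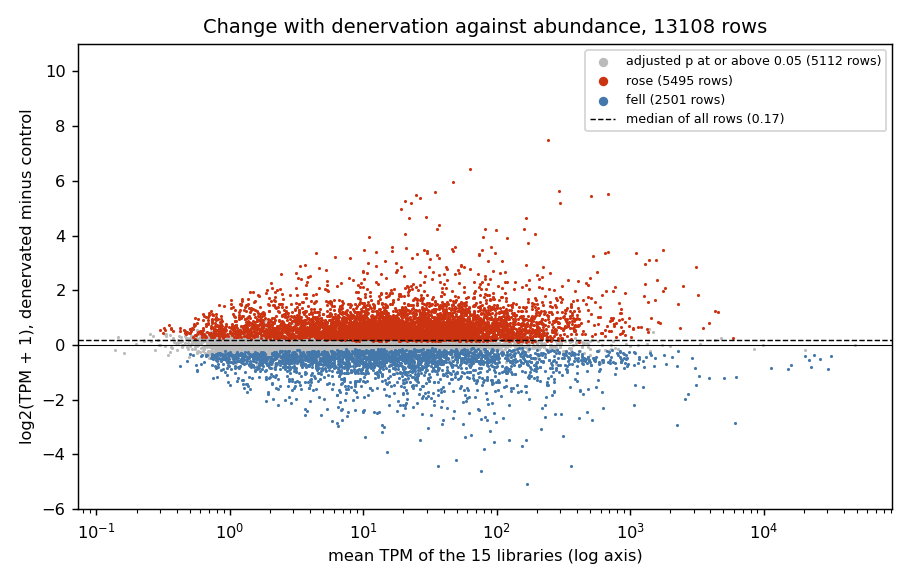
Difference of log2(TPM + 1), denervated minus control, on the vertical axis against the mean TPM of the 15 libraries on a logarithmic horizontal axis, with 1 point for each of 13108 rows, coloured by direction where the limma adjusted p was under 0.05. Rises reach 7.48 and falls -5.09, the median of all rows (dashed) lies at 0.17, and the most abundant rows lie mostly below 0.

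Separation between single libraries was frequent. In 3182 rows (24.3%) every denervated library lay above every control library, and in 967 rows (7.38%) every denervated library lay below. In 4149 rows (31.7% of all rows tested) the groups did not overlap, in either direction. Of these, 1397 (10.7% of all rows tested) were among the 1574 rows changed at least 2-fold. Those 1574 rows were picked for a large difference in the same libraries, so the choice itself favours their separation. The precision also bounds the rows with little change, but only for TPM as deposited and with intervals from the fit that pooled all 4 groups. The difference had a 95% interval inside 1.5-fold in both directions in 5611 rows (42.8%), of which 1858 (14.2%) were nevertheless called and 3753 (28.6%) were not. The interval was inside 1.2-fold in 817 rows (6.23%), and 5112 rows (39%) were not called at all. As deposited, it lay wholly beyond 2-fold in 618 rows upward (4.71%) and 280 downward (2.14%), without adjustment for the number of rows.

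The 10 largest rises took rows that were scarce or modest in control muscle, with control means of 0.151 to 30.7 TPM, to means of 44.2 to 1417 TPM. Every one of them had no overlap between the groups, with log2 differences of 5.27 to 7.48 (limma, largest adjusted p = 2.66e-10). The largest was row 6587, with 0.774, 1.82 and 3.05 TPM as lowest, median and highest control library and 351.1, 501.5 and 803.6 TPM in denervated libraries. All 7 denervated libraries were thus far above the highest control library. Its log2 difference was 7.48 (SE 0.564, limma adjusted p = 1.81e-13). The pooled SE also takes in the knockout libraries, which ranged from 1.15 to 256.1 TPM in row 6587. Next in size came the row directly before it in the table, row 6586, with 0.0893 to 0.619 TPM in control libraries (median 0.437) and 57.3 to 229.9 TPM in denervated libraries (median 111.4). Its log2 difference was 6.42 with an SE of 0.484 (limma, adjusted p = 1.92e-13). Both were picked as the largest rises, so nothing is read from their shared direction. Row 6587 was 2.88 to 8.67 times as abundant as row 6586 in control libraries, where row 6586 was near 0. The ratio was 2.63 to 6.14 in vehicle-treated denervated libraries, 5.93 to 10.3 with NVS-HD1 and 4.05 to 34.9 in the knockout.

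The most abundant of these risen rows was row 14897. It had 23.4 to 42.2 TPM in control libraries (median 28.98) and 1185 to 1666 TPM in denervated libraries (median 1388), a log2 difference of 5.51 (SE 0.300, limma adjusted p = 8.91e-17). Its rank by mean TPM went from 3440 to 64 of the rows tested. Row 9166 likewise rose from rank 4286 to rank 93, with 15.8 to 30.5 TPM in control (median 22.1) and 661.8 to 1626 TPM in denervated libraries (median 1061; limma log2 difference 5.46, adjusted p = 2.66e-10). Row 752 had 4.24 to 32.2 TPM in control (median 10.4) and 481.9 to 763.3 TPM in denervated libraries (median 617.0). Its control range was the wider in proportion, with replicate 1 at 32.2 TPM and the next highest at 14.1 TPM. The spread did not pass the test in row 9166 or row 752 (limma on absolute deviations, adjusted p = 0.9998 and 0.931). Row 17976 also held a narrow range in denervated muscle, 84.9 to 119.7 TPM (median 100.6), against 0.169 to 2.54 TPM in control (median 0.627). The other 4 rows, at positions 4006, 12361, 476 and 10649, had control means under 1 TPM. In row 476 the denervated values were set apart by 1 library: replicate 1 had 130.4 TPM and the next highest 54.3 TPM.

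The 10 largest falls began at control means of 27.2 to 652.2 TPM and ended at means of 0.892 to 28.3 TPM, again without any overlap (limma, largest adjusted p = 2.07e-10). Their log2 differences lay between -5.09 and -3.48. The largest was in row 2641, with 279.3, 311.1 and 328.2 TPM as lowest, median and highest control library and 5.35, 7.72 and 10.6 TPM in denervated libraries. Its control libraries agreed closely, so the whole range of either group is small beside the difference of -5.09 (SE 0.304, limma adjusted p = 8.31e-16). That SE pools all 4 groups. On the log2 scale the SD of row 2641 was 0.0756 in control and 0.323 in denervated libraries. The most abundant of the 10 was row 1371, which fell by 4.42 on the log2 scale (SE 0.450, limma adjusted p = 2.07e-10). Its control libraries ranged from 143.7 to 997.2 TPM (median 712.6) and its denervated libraries from 15.1 to 49.25 TPM (median 26.97). The lowest control value came from replicate 3, which stands apart in other measures below. Rows 6881 and 978 also spread in control muscle. Row 6881 had 59.4 to 208.0 TPM in control libraries (median 137.5) and 2.30 to 5.88 TPM in denervated ones (median 4.82). Row 978 had 39.5 to 115.3 TPM (median 59.5) and 0.833 to 5.37 TPM (median 1.55). Row 13239 was among the most even, with 150.0 to 180.6 TPM in control (median 167.5) and 9.86 to 17.4 TPM in denervated libraries (median 13.5).

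**Figure D2:**
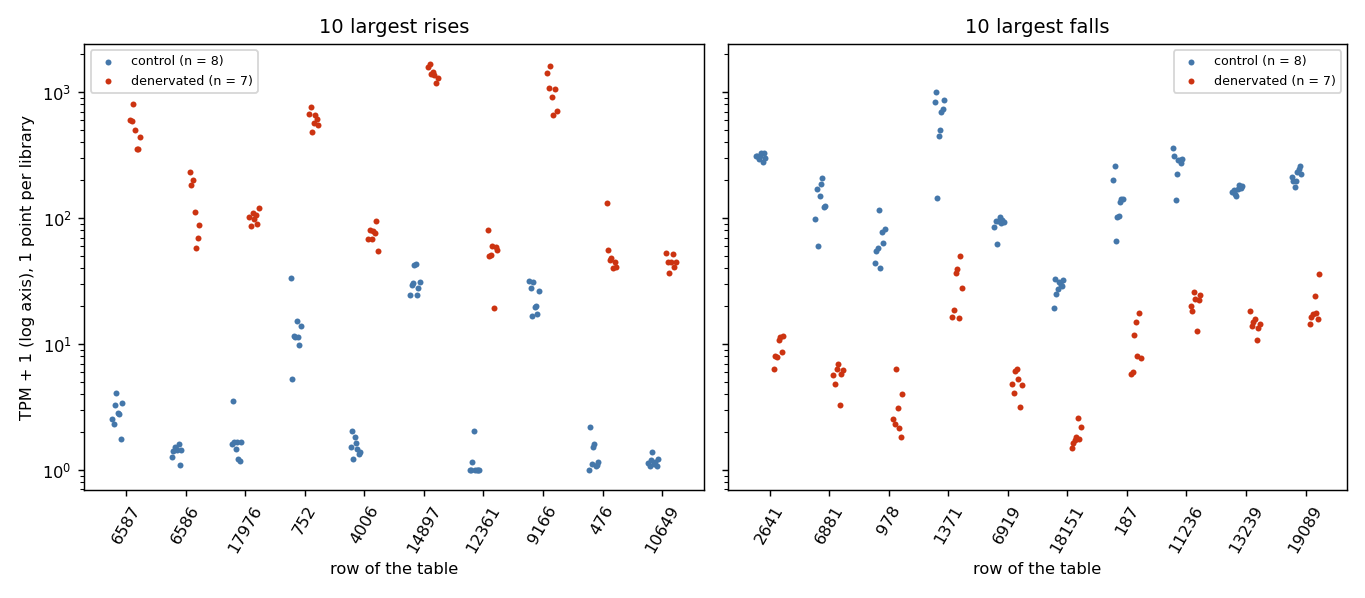
TPM + 1 on a logarithmic axis for the 10 largest rises (left) and the 10 largest falls (right), with 1 point per library, 8 control and 7 denervated, and rows named by their position in the table. No row has overlapping groups, row 6587 goes from at most 3.05 TPM to at least 351.1 TPM, and row 2641 from at least 279.3 TPM to at most 10.6 TPM.

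Presence in one state and near absence in the other was rarer. These counts are out of the 13108 rows tested, in TPM as deposited. In 68 rows every control library was under 1 TPM and every denervated library at or above it, and in 34 rows the reverse held. With at least 5 TPM required in the group where the row was present, 10 rows appeared and 2 were lost, and with at least 10 TPM, 4 appeared and 0 were lost. Rows that appeared were mostly scarce, with a median denervated mean of 2.53 TPM and a highest one of 133.7 TPM, that of row 6586. Row 18743 was listed at 0 in all 8 control libraries and had 6.23 to 14.0 TPM in denervated ones (median 9.42). The filter that chose the rows tested needs 7 libraries, so a row present in the 7 denervated libraries alone can enter. Just inside it, 86 rows reached 1 TPM in exactly 7 libraries, with median group means of 0.529 TPM in control and 0.678 TPM in denervated muscle. Just outside it, 94 rows reached it in 6 libraries, with 0.634 and 0.560 TPM.

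The pool of transcripts was spread over more rows after denervation. The 10 most abundant rows of each library held 29.98% ± 2.23 of TPM in control muscle (SD, n = 8; range 28.2% to 35.1%) and 22.2% ± 2.35 in denervated muscle (SD, n = 7; range 19.8% to 26.8%). The difference was -7.79 percentage points (exact two-sided permutation test, adjusted p = 0.000207 over 4 measures). The 100 most abundant rows held 52.7% ± 2.65 (SD, n = 8) and 44.5% ± 2.49 (SD, n = 7), with the same adjusted p = 0.000207 in the exact permutation test. The effective number of rows, the number of equally abundant rows with the same Shannon entropy as the library, was 760.8 ± 109.6 (SD, n = 8) in control muscle and rose to 1220 ± 163.5 (SD, n = 7) with denervation (adjusted p = 0.000207, exact permutation test). For these 3 measures no denervated library overlapped a control library, and the unadjusted p = 0.000155 is the smallest that 6435 splits can give. The number of rows at or above 1 TPM did not pass the test, at 12220 ± 322.3 (SD, n = 8) and 12323 ± 199.4 (SD, n = 7; exact permutation test, adjusted p = 0.490). Control libraries ranged from 11607 to 12671 such rows and denervated ones from 12024 to 12621.

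Set against each other, the mean control and the mean denervated profile had 22.1% of the TPM pool on different rows. Single libraries of opposite groups differed by 19.8% to 28.8% of the pool (median 23.3% over 56 pairs), whereas 2 control libraries differed by 3.88% to 12.4% (median 4.90%, 28 pairs) and 2 denervated libraries by 4.47% to 11.8% (median 7.21%, 21 pairs). The loss was concentrated and the gain was not. Of the 221392 TPM lost, 50% came from 14 rows and 90% from 435, and the 5 largest losses made up 25.4%. Of the equal amount gained, 50% went to 149 rows and 90% to 2006, and the 5 largest gains made up 8.78%.

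The row that lost most TPM was row 15840, the second most abundant in control muscle. It had 35889 to 46692 TPM in control libraries (median 37828) and 18139 to 27552 TPM in denervated ones (median 20043), a log2 difference of -0.88 (SE 0.086, limma adjusted p = 8.76e-11). Row 2635 followed, with 25521 to 33151 TPM (median 27415) and 9382 to 24207 TPM (median 16091), at a log2 difference of -0.82 (limma, adjusted p = 1.05e-06). Its denervated libraries differed more among themselves than those of any other row in this group of 5, with an SD of 4666 TPM. Row 2748 had the steepest of these losses, from 9213 to 12241 TPM in control libraries (median 10110) to 1114 to 1834 TPM in denervated ones (median 1428). It fell by 2.87 on the log2 scale (SE 0.209, limma adjusted p = 8.61e-14), from rank 13 to rank 63. Rows 10778 and 17180 fell by 0.53 and 0.41 on the log2 scale as deposited (limma, adjusted p = 4.78e-07 and 5.37e-06), but both turned to differences upward after quantile normalization. Row 10778 was not called there, at 0.068 (limma, adjusted p = 0.225), while row 17180 was called in the opposite direction, at 0.14 (limma, adjusted p = 0.00895). That normalization sets the highest ranks of all libraries to the same values. Every other alternative that holds these rows kept both as called falls, with log2 differences down to -0.73 and -0.61.

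The most abundant row, row 18227, did not pass the test. It had 43802 to 55601 TPM in control libraries (median 48233) and 40621 to 58468 TPM in denervated ones (median 47684), a log2 difference of -0.01 with a 95% interval from -0.18 to 0.16 (limma, adjusted p = 0.926). It ranked first in both groups. The other 4 of the 5 most abundant rows fell as deposited. Row 16942, the least changed of them, fell by 0.36 on the log2 scale as deposited (limma, adjusted p = 0.000297), with overlapping libraries. After quantile normalization it was called upward, at 0.11 (limma, adjusted p = 0.0327). Every other alternative that holds row 16942 kept it as a called fall, with log2 differences down to -0.56.

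The largest gain of TPM was in row 14045. Its control libraries held 657.8 to 884.1 TPM (median 815.1) and its denervated libraries 4198 to 6777 TPM (median 5739), a log2 difference of 2.84 (SE 0.187, limma adjusted p = 8.15e-15). It moved from rank 111 to rank 18. Row 393 rose more evenly, from 862.5 to 1040 TPM (median 925.9) to 4030 to 4946 TPM (median 4121), a log2 difference of 2.17 (SE 0.088, limma adjusted p = 9.66e-20). Row 18656 had a control mean of 1495 ± 188.4 TPM (SD, n = 8) and a denervated mean of 5258 ± 690.5 TPM (SD, n = 7). Row 399 had 2850 ± 345.4 TPM in control (SD, n = 8) and 6576 ± 433.8 TPM in denervated muscle (SD, n = 7). Row 11013 was the least even of the 5, at 2034 to 3816 TPM in control libraries and 4347 to 8016 TPM in denervated ones. Its log2 difference was 1.23 with all libraries and 0.76 within the libraries whose titles carry the number 29, both called by limma.

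The share and the direction of called rows varied with abundance. Rows were put in classes by their mean TPM over the 15 libraries. The share called grew from 34.9% of 707 rows under 1 TPM to 54.3% of 3156 rows at 3 to 10 TPM. It reached 74.6% of 2483 rows at 30 to 100 TPM and 87.7% of 57 rows at 1000 to 3000 TPM. At or above 3000 TPM it was lower again, at 77.4% of 31 rows. The median SE fell over the first of these classes, from 0.15 under 1 TPM to 0.09 at 30 to 100 TPM. Direction as deposited also varied with abundance. At 30 to 100 TPM 55.0% of rows rose and 19.6% fell, at 300 to 1000 TPM 43.8% rose and 40.2% fell, and of 31 rows at or above 3000 TPM 7 rose and 17 fell. After median-of-ratios scaling falls outnumbered rises at 1 to 3 TPM (387 rose, 603 fell), at 3 to 10 TPM (954 fell, and fewer rose) and at 300 to 1000 TPM (120 and 141), which turns the order of these classes. The direction was the same with both scalings at 30 to 100 TPM (1052 rose, 725 fell) and at or above 3000 TPM (6 and 19). These 31 rows held 42.6% ± 2.51 of TPM in control libraries (SD, n = 8) and 32.7% ± 2.66 in denervated ones (SD, n = 7). Each of the classes from 10 to 3000 TPM held more of the pool after denervation, for example 12.1% ± 0.799 (SD, n = 8) and 14.8% ± 0.776 (SD, n = 7) at 30 to 100 TPM; these class shares were not tested.

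**Figure D3:**
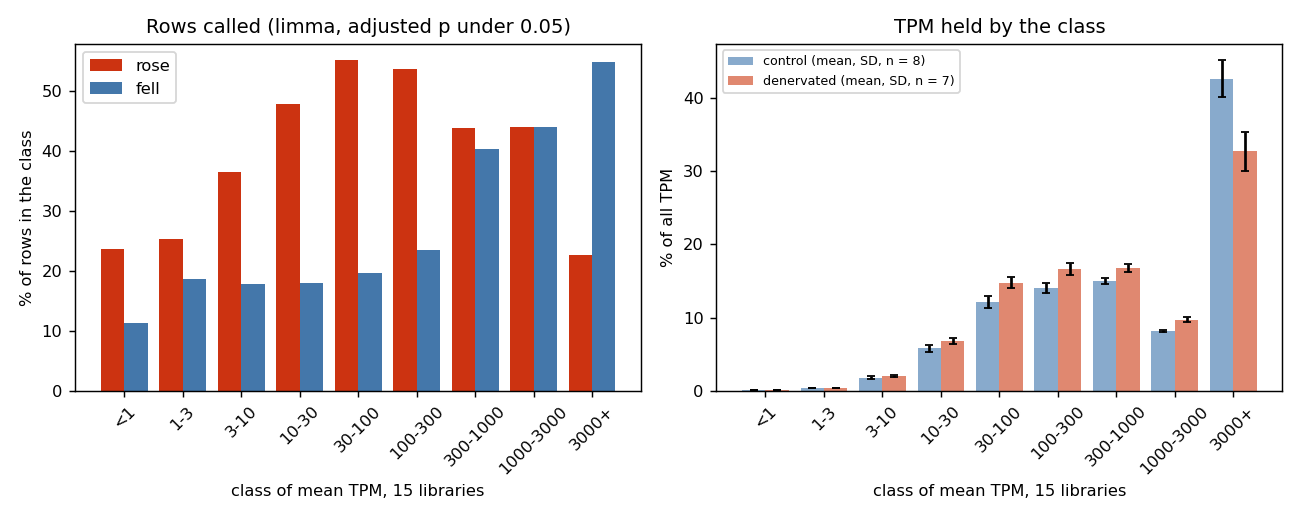
Left, percent of rows in each class of mean TPM that rose or fell with denervation (limma, adjusted p under 0.05). Right, percent of all TPM held by the class in control (n = 8) and denervated (n = 7) libraries, bars for means and error bars for SD. As deposited, rises exceed falls up to 1000 TPM and are fewer than falls at or above 3000 TPM, but after median-of-ratios scaling falls exceed rises also at 1 to 3 TPM (603 and 387), 3 to 10 TPM (954 falls) and 300 to 1000 TPM (141 and 120). At or above 3000 TPM, the share of TPM is 42.6% in control and 32.7% in denervated libraries.

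Because TPM are shares, the number of rises and falls depended on the scaling. The median difference over all rows was 0.17 on the log2 scale as deposited. After median-of-ratios scaling it was 0.00077, and 4146 rows rose and 3927 fell. Rises made up 68.7% of called rows as deposited and 51.4% with that scaling. Quantile normalization brought them to 50.3%, and leaving the 20 most abundant rows out of the total brought them to 50.1%. Of the 7996 called rows, 6249 (78.2%) were called in the same direction under all 3 other scalings. Falls were kept more often than rises: 2487 of 2501 falls, but 3762 of 5495 rises. In 8 rows the call was opposite under at least 1 scaling. Of the rows changed at least 2-fold, 1568 of 1574 were called in the same direction under all 3 and 0 in the opposite direction. Of the 6 others, 5 were among the 20 rows that the last scaling leaves out and so had no value there. Their balance depended on the scaling, however. There were 1103 rises and 471 falls of at least 2-fold in the deposited TPM, 774 and 652 with median-of-ratios scaling, 707 and 648 after quantile normalization, and 806 and 737 without the 20 most abundant rows. Of the 1103 rises, 774, 707 and 792 were still at least 2-fold under these scalings, against 471, 471 and 468 of the 471 falls.

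**Figure D4:**
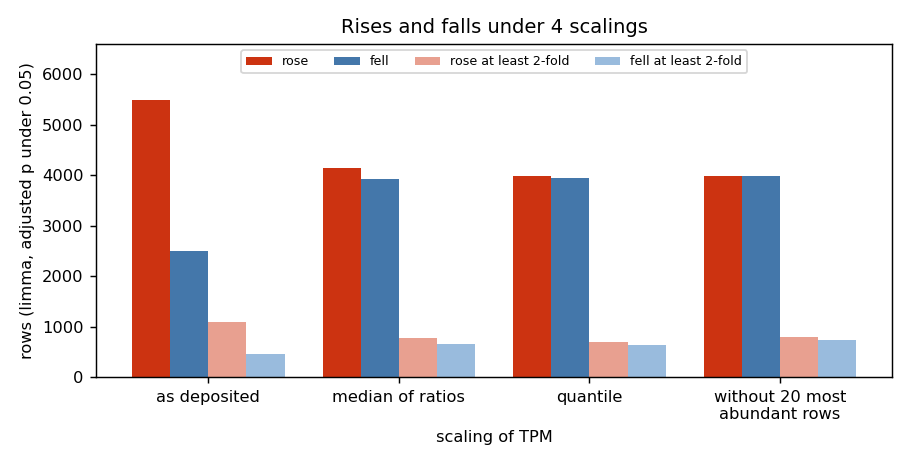
Number of rows that rose or fell with denervation, in all and by at least 2-fold, under 4 scalings of TPM (limma, adjusted p under 0.05). As deposited 5495 rose and 2501 fell, and under the other 3 scalings rises make up 50.1% to 51.4% of the called rows.

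The rows with the least change show the same point. Of the rows that averaged 100 TPM or more, the 5 whose 95% intervals lay closest around 0 had log2 differences between -0.02 and 0.01 and intervals within -0.11 to 0.12. Row 17745, the most abundant of them, had 1568 to 1891 TPM in control libraries (median 1729) and 1640 to 1843 TPM in denervated ones (median 1723). Their TPM did not pass the test (limma, smallest adjusted p = 0.808). Relative to the median row, however, each was lower: after median-of-ratios scaling their log2 differences lay between -0.21 and -0.18, all called by limma, and all 5 were also called lower under the other 2 scalings.

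Each library was placed between the means of the other libraries, with 0% for the control mean and 100% for the denervated mean over all 13108 rows. Control libraries lay between -5.20% and 7.56% (median 2.56%) and denervated libraries between 87.8% and 109.2% (median 96.2%). No library lay between 7.56% and 87.8%. Along this line the denervated libraries had an SD of 7.59 percentage points and the control libraries one of 4.95. Control replicate 3 and denervated replicate 5 lay farthest off the line. Control replicate 3 was off by a root mean square of 0.58 on the log2 scale, where the other 7 control libraries were at most 0.31, and denervated replicate 5 was off by 0.42, where the others of its group were at most 0.33. The same libraries had the most concentrated pools of their groups, with 35.1% and 26.8% of TPM in their 10 most abundant rows. Without control replicate 3, a choice made after its values had been seen, 8085 rows changed, 5211 upward and 2874 downward, and the median difference over all rows was 0.13.

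**Figure D5:**
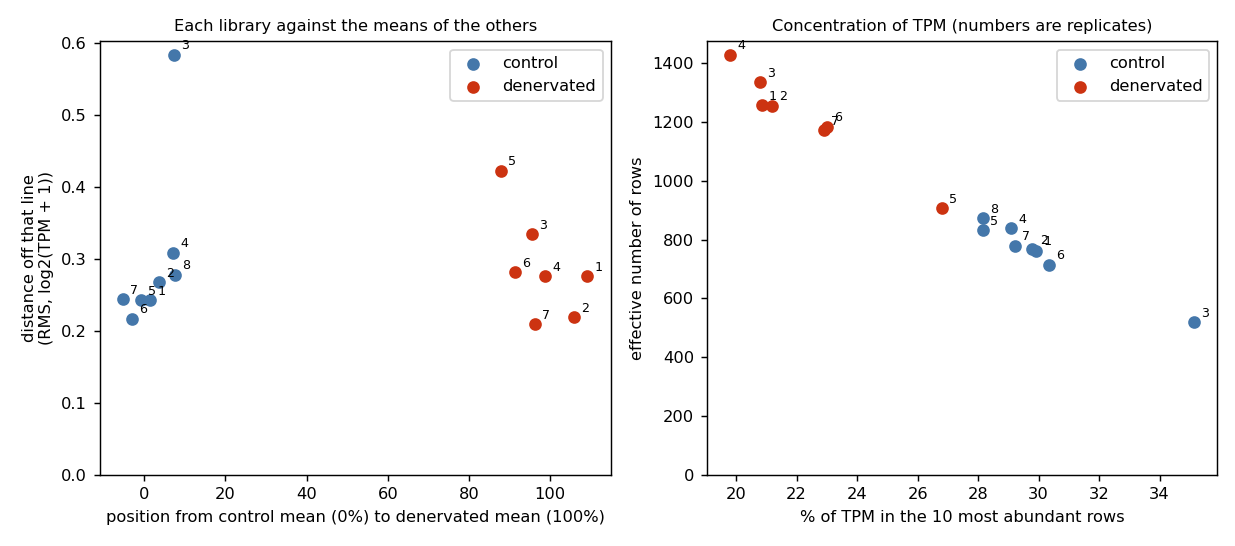
Left, position of each library on the line from the control mean (0%) to the denervated mean (100%) of the other libraries, against its distance off that line (root mean square of log2(TPM + 1)). Right, percent of TPM in the 10 most abundant rows against the effective number of rows. Points are 8 control and 7 denervated libraries with their replicate numbers, the groups are separate in both panels, and control replicate 3 and denervated replicate 5 lie apart from their groups.

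Spread between libraries was compared row by row, with limma on the absolute deviations from the group mean. It differed in 6 rows at an adjusted p under 0.05 (0.0458%), 4 with more (0.0305%) and 2 with less spread (0.0153%) in denervated muscle, and 697 rows (5.32%) had an unadjusted p under 0.05. With deviations from the group median, limma called 0 rows, and 255 had an unadjusted p under 0.05. The 5 called rows looked at singly were listed at 0 or under 0.1 TPM in all libraries of a group, or at 0 in every denervated library, so the calls set a varying row against an undetected one. Leaving out denervated replicate 2 gave 3 rows and leaving out control replicate 3 gave 12. The number of rows at an unadjusted p under 0.05 rested on that same control library: it was 2469 without it, against 636 to 781 when any other library was left out. The balance of direction turned too, from 280 with more and 417 with less spread in denervated muscle to 2017 and 452. At the median, rows at 10 to 30 TPM had an SD of 0.20 on the log2 scale in control and 0.18 in denervated libraries, and rows at or above 3000 TPM one of 0.13 and 0.15. Without control replicate 3 the control SDs were 0.14 and 0.086, both below the denervated ones. Denervated replicate 5, the library of its group farthest off the line, stayed in, and no fit left out both libraries. Control replicate 3 was picked after its values had been seen, so no direction of spread is read from these values.

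The library titles carry a number whose meaning the labels do not give. It was 29 in 5 control and 3 denervated libraries, 28 in 1 and 4, and 20 in 2 control libraries alone. Those 2 were control replicates 3 and 4, so control replicate 3, which stood apart above, has no denervated library of its number. Within number 29, limma called 7789 rows, 4893 upward and 2896 downward, and 6957 of the 7996 rows (87.0%) were called in the same direction, 0 in the opposite one. With the number as a term in the fit of all 4 groups 7457 rows were called, of which 7081 were among the 7996 with the same direction. Of the rows changed at least 2-fold, 1567 of 1574 were called in the same direction within number 29 and 1568 with the term.

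The same rows can be read in the other denervated groups of the study, which had no control legs of their own here. These comparisons share libraries with the present one, and the rows were chosen for their extreme values in WT_VEH_DEN, so nothing is read from the direction. All 10 largest rises and all 10 largest falls had means between control and vehicle-treated denervated muscle both with NVS-HD1 and in the knockout. Row 14897, for example, had 240.7 ± 69.3 TPM (SD, n = 10) with NVS-HD1 and 228.8 ± 179 TPM (SD, n = 9) in the knockout, beside 30.7 ± 7.31 TPM (SD, n = 8) in control and 1417 ± 165 TPM (SD, n = 7) in vehicle-treated denervated muscle. Row 13239 stayed near its denervated level with NVS-HD1, at 15.2 ± 2.92 TPM (SD, n = 10) beside 13.5 ± 2.31 TPM (SD, n = 7). Among the 5 largest gains and 5 largest losses of TPM, only rows 11013 and 2635 had means outside the interval from control to vehicle-treated denervated muscle. Row 11013 had 9850 ± 3076 TPM (SD, n = 10) and 8423 ± 3478 TPM (SD, n = 9), above the 6293 ± 1612 TPM (SD, n = 7) of vehicle-treated denervated muscle, and row 2635 had 30587 ± 2721 TPM (SD, n = 10) and 29275 ± 4959 TPM (SD, n = 9), above its control mean of 27888 ± 2422 TPM (SD, n = 8). These differences were not tested.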

How the data were processed

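Stranded libraries of polyadenylated RNA from gastrocnemius muscle were sequenced, per the labels' protocols. What the authors deposited is a single table of TPM (23737 rows, 34 libraries), in which every library has the same total. The submitters' processing notes name STAR 2.4.5a and mm10. Which tool counted reads, and on which annotation, is not given in the sources used here. Read depth cannot be recovered from TPM, so counting error has no interval.

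The analysis used log2(TPM + 1) of rows that reached 1 TPM in 7 or more of the libraries. All 4 groups entered 1 limma 3.58.1 fit (R 4.3.3, empirical Bayes trend) with the contrast WT_VEH_DEN minus WT_VEH_CON, two-sided, Benjamini-Hochberg over 13108 rows. Rose and fell mean an adjusted p under 0.05. Spread was tested with limma on absolute deviations in the 15 libraries. Measures per library were compared with exact permutation tests (Python 3.11.15, numpy 2.4.6). All were tested on simulated data. Replicates were numbered in accession order.

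Rows in the text are the 10 largest rises and falls, the 5 largest gains and losses of TPM, the 5 most abundant rows, the 5 of at least 100 TPM with intervals closest to 0, and up to 3 largest increases and decreases of spread. Rules and lists were chosen with earlier results of these data known. Alternatives were other pseudocounts, filters and scalings, the title number, fits of the 15 libraries alone, and leaving out each library.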

Additional observations from a re-analysis of the deposited data

Results flagged for a closer look

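Each group of libraries was searched, for 6 measures of each library and for 42 rows chosen for description, for a highest or lowest library far from the rest (Dixon's criterion). This gave 21 such values in 96 groups, and 1 library gives 10 of them. Chance gives about 1 in 20 only for groups not chosen by their values. The 42 rows were chosen for extreme values or spread, and rows 12885 and 21404 have a single control library above 0, so that rate does not apply to them and nothing is read from the number.

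That library was control replicate 3. It was highest in the TPM share of the 10 most abundant rows (35.1%, next 30.3%), in the share of the 100 most abundant (58.8%, next 53.5%) and in its distance off the line between the group means (0.58, next 0.31), and lowest in the effective number of rows (519.7, next 715.0). It was also highest in rows 399 (3629 TPM, next 2900), 2635 (33151 TPM, next 28764), 15840 (46692 TPM, next 39799) and 17180 (43956 TPM, next 36826), and lowest in rows 506 (112.3 TPM, next 129.1) and 6919 (61.6 TPM, next 84.3). Denervated replicate 5 was highest of its group in the share of the 100 most abundant rows (49.5%, next 44.9%).

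Other control libraries stood apart in single rows. Replicate 1 was highest in rows 752 (32.2 TPM, next 14.1) and 21404 (0.0543 TPM, the others listed at 0). Replicate 2 was highest in row 17976 (2.54 TPM, next 0.675). Replicate 4 was highest in rows 10649 (0.389 TPM, next 0.210), 12361 (1.04 TPM, next 0.163) and 12885 (0.0855 TPM, the others listed at 0). Replicate 5 was highest in row 11013 (3816 TPM, next 2756) and replicate 6 in row 10656 (136.2 TPM, next 125.2). Denervated replicate 1 was highest in rows 393 (4946 TPM, next 4376) and 476 (130.4 TPM, next 54.3).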

How the results depend on the processing

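The number of rows changed stayed within 1.5 times of 7996 under all 11 alternatives and lay between 7676 and 8085 when each library was left out. Rows changed at least 2-fold numbered 719 instead of 1574 with a pseudocount of 10, which shrinks low rows, and 1517 to 1645 with a library left out. Rows differing in spread numbered 0 with deviations from the group median and 25 with a pseudocount of 10, and 3 to 12 with a library left out; the cause was not tested. With a library left out, the difference in the TPM share of the 10 most abundant rows lay between -8.56 and -7.05 percentage points, that of the 100 most abundant between -9.04 and -7.34, and that in the effective number of rows between 424.2 and 511.1. The 20 largest rises and falls kept their direction and call under all 7 alternatives and all 15 fits without a library. Quantile normalization sets the highest ranks of all libraries to the same values. After it, rows 10778, 17180 and 16942 had log2 differences of 0.068, 0.14 and 0.11. Rows 17180 and 16942 were called upward there, and no other alternative turned the fall of any of these rows. No paired analysis was possible because the labels give no replicate numbers and do not tie legs to mice. TPM keep no depth, so how far low rows are limited by counting is unknown.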

Other observations

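Neighbouring rows of the table were more alike in their change than distant ones. Over 8979 pairs of tested rows that stand next to each other, Pearson's r of the log2 differences was 0.15 across rows. It was 0.07 at 2 rows apart, 0.04 at 5 rows, 0.02 at 10 rows and 0.01 at 100 and at 1000 rows apart. The corresponding r of mean log2 abundance was 0.07 for next neighbours and 0.003 at 100 rows apart. Of adjacent pairs in which both rows changed at least 2-fold, 153 of 198 changed in the same direction, against 81 of 119 pairs at 1000 rows apart. The 2 largest rises, rows 6586 and 6587, are such a pair. These are descriptions across rows measured in the same libraries, and rows are not independent replicates. The comparison was added after the data had been seen.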
